A study of Mus musculus with 6 samples.

Results

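The genes described here encode the fibulins (Efemp1, Efemp2, Fbln1, Fbln2, Fbln5 and Fbln7), the fibrillins (Fbn1 and Fbn2), elastin (Eln) and a microfibril-associated protein (Mfap5). They were taken by gene symbol, and each of the 10 symbols matched 1 of the 34745 genes in the table. NOR-10 is a mouse skeletal muscle fibroblast line. The study incubated these cells with D-gal (D-galactose, a sugar given to bring on senescence) at 20 mg/mL for 3 days, and gave the control cells an equal amount of PBS. RNA-seq was performed on n = 3 libraries of the control group (Con) and n = 3 of the D-gal group (Dgal). Both groups are the same single cell line, for which the sources name no genetic change, grown in medium with 10% fetal bovine serum. The sources do not say whether the libraries of a group came from separate cultures, so standard errors and p-values measure only the spread between these samples. The genes were chosen by family and function, with their log2 fold changes between these same libraries already known, so their differences are given as a description, with no p-value.

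Elastic fibres give connective tissue its recoil. Fibroblasts secrete tropoelastin, the soluble form of elastin, which gathers on a scaffold of fibrillin microfibrils and is then crosslinked by lysyl oxidases. Fibulins are secreted glycoproteins built from repeats related to epidermal growth factor. Efemp2 (fibulin-4) and Fbln5 (fibulin-5) bring tropoelastin and the crosslinking enzymes together, whereas Fbln1 and Fbln2 also bind fibronectin and basement membrane proteins. Fibrillins further hold latent TGF-β in the matrix, and Mfap5 binds to fibrillin. In muscle this matrix lies between the fibres and in the walls of vessels.

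Total counts per library lay between 16876087 and 20830349 in Con and between 13759108 and 15157064 in Dgal, so the control libraries were the deeper ones. Counts on genes of the mitochondrial genome made up 4.26% to 4.44% of a Con library and 4.87% to 4.98% of a Dgal library. Of the 8 fibroblast markers, 7 had counts high enough to be tested (5 fell and 1 rose at an adjusted p under 0.05 in edgeR's quasi-likelihood test), with a summed level of 7027 to 7220 CPM (counts scaled to library size) in Con and 4637 to 4760 CPM in Dgal, while Lum had no more than 1 count in any library. The muscle stem cell and myoblast markers Pax7, Myf5 and Myod1 had a count of 0 in all 6 libraries. The 6 smooth muscle and myofibroblast markers together made up 2682 to 2775 CPM in Con and 3528 to 3873 CPM in Dgal, and each of the 6 rose in the same test. Markers of several other cell types were at lower summed levels in all Dgal libraries than in any Con library. The myogenic markers summed to 5.35 to 6.08 CPM in Con and 3.68 to 4.02 CPM in Dgal, and the endothelial markers to 4.52 to 5.40 CPM and 3.09 to 3.38 CPM. The epithelial markers, almost all of it Cdh1, summed to 7.001 to 8.484 CPM in Con and 1.76 to 2.61 CPM in Dgal, while Epcam had a count of 0 throughout. The chondrocyte markers, almost all of it Col2a1, summed to 56.1 to 56.9 CPM in Con and 29.8 to 35.6 CPM in Dgal. The adipocyte markers overlapped between the groups, at 0.963 to 1.66 CPM and 1.20 to 2.01 CPM. The part of these shifts in the results below was not tested. Macrophage markers were highest in Con replicate 1, as given beside Fbln1.

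Promoter sequences are shown for 4 members that differed in direction: Efemp1 and Fbln1, which were lower in Dgal, Fbln7, which was higher, and Fbln5, whose groups overlapped. RefSeq's promoter table (GRCm38.p6) held 7 of the 10 genes, without Eln, Fbn2 and Mfap5. Each line gives the 250 bases before the first start site listed for the gene, 5′ to 3′ on the gene's strand. Capitals mark matches on either strand to GGGCGG (GC box), TGANTCA (AP-1 site), CAGAC (SMAD site), CATTCC (MCAT, bound by TEAD factors) or TGGAAA (NFAT core). The TATA box TATAAA was also searched. The windows are chr11:28852955-28853204 (plus strand) for Efemp1, chr15:85205699-85205948 (plus) for Fbln1, chr12:101819120-101819369 (minus) for Fbln5 and chr2:128863682-128863931 (plus) for Fbln7. In GENCODE's annotation of GRCm38 the last base of the Efemp1 window is the first base of an exon. The other windows shown hold no exon, but the Fbln7 window lies inside its gene, whose annotated start is 128862981.
Efemp1: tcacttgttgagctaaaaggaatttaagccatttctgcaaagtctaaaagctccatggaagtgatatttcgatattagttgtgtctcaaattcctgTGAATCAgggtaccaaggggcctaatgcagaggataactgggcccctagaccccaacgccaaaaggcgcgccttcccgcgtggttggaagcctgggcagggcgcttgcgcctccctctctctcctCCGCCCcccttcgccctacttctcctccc
Fbln1: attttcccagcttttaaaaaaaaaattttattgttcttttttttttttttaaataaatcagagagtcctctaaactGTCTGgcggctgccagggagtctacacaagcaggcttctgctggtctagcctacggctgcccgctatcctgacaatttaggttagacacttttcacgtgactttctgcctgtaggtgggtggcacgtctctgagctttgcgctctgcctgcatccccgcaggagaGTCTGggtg
Fbln5: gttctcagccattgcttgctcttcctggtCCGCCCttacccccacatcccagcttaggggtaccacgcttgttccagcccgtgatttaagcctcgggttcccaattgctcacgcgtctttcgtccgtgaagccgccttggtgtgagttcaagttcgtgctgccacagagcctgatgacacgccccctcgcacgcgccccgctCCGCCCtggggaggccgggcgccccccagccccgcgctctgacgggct
Fbln7: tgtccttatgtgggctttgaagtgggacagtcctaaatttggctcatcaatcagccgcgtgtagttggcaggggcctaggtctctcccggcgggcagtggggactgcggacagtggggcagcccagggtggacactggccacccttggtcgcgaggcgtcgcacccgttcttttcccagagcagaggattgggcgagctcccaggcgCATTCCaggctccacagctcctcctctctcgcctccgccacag

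The Efemp1 window held an AP-1 match, TGAATCA, 154 bases before the start and a GC box 29 bases before it. Efemp1 was the 1 gene of the 7 with an AP-1 match, and 6.75% of the 32851 promoters in the table hold this motif. The Fbln1 window held SMAD matches 174 and 9 bases before the start, and no GC box at this start site. The Fbln2 window, chr6:91212514-91212763 (plus), lies within an annotated exon, as does that of Fbn1, and neither is shown. The Fbln2 window held an NFAT core 121 bases and a GC box 16 bases before the start. Fbln5 had GC boxes 221 and 48 bases before the start, and Fbln7 had an MCAT match 43 bases before it. Of the 11 windows listed for the 7 genes, 8 held a GC box (32.7% of all promoters in the table), 4 a SMAD match (42.2%), 4 an NFAT core (18.6%), 1 an MCAT match (12.6%) and 0 a TATA box (12.4%). Several of these windows overlap or belong to the same gene. GC content was 46.4% in the Fbln1 window and 65.2% in the Fbln5 window, beside a median of 52.4% over all promoters. Among these 7 genes, no motif stood in all of those that were lower in Dgal and in none of the others. These are matches of letters, not tested sites.

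Efemp1 was 3.06-fold lower in Dgal, the largest difference among the 10 genes, and Fbln1, Fbn2, Mfap5, Fbln2 and Fbn1 were also lower in Dgal. Fbln7 was higher, about 2-fold. The values of Fbln5, Efemp2 and Eln overlapped between the groups. All 10 genes passed the filter on low counts, each with counts in both groups. Differentially expressed genes were called at the study's thresholds (adjusted p-value below 0.05, absolute log2 fold change of 1 or more) with edgeR's quasi-likelihood test and Benjamini-Hochberg adjustment over the 13407 genes tested. By this rule 2 of the 10 genes, Efemp1 and Fbln1, were called, both lower, where 4.21% of all genes tested were called in either direction, 1.83% were called lower and 2.37% higher. The member next inside the fold threshold was Fbln1 (log2 fold change -1.25), and those next outside it were Fbln7 (0.98) and Fbn2 (-0.90). With no fold threshold, 6 members passed as lower and 1 as higher, where 34.8% of all genes tested passed, 17.8% lower and 16.9% higher. In the same 7 genes, all Dgal libraries lay on one side of all Con libraries, as they did in 49.1% of all genes tested (25% lower, 24.1% higher). The median log2 fold change was -0.34 over the 10 genes and 0.0036 over all genes tested. As the genes were chosen with this comparison known, nothing is read from these shares. In a bulk culture, fewer cells expressing a gene and less RNA per cell cannot be told apart.

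**Figure D1:**
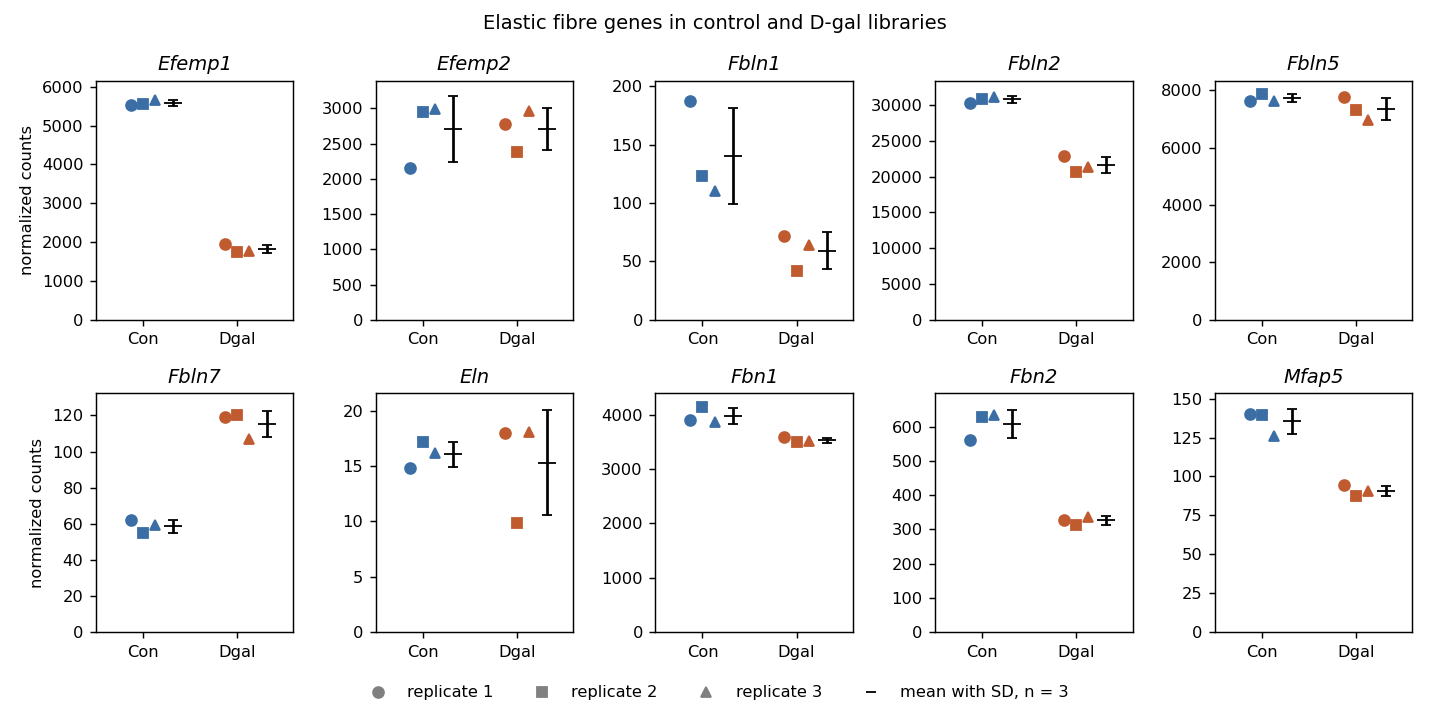
Normalized counts (vertical axes, from 0, separate for each gene) of the 10 genes in the 3 Con and 3 Dgal libraries, with the mean and SD (n = 3) beside each group. The Efemp1 values lie between 5526 and 5657 in Con and between 1745 and 1954 in Dgal, whereas the values of Efemp2, Fbln5 and Eln overlap between the groups.

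Among the short fibulins, Efemp1 (fibulin-3, ENSMUSG00000020467) lies on chromosome 11 of GRCm38, from 28853204 to 28926743 on the plus strand, and its longest coding transcript has 11 exons with 493 codons. Fibulin-3 is a secreted glycoprotein of basement membranes and elastic tissues, and binds the metalloproteinase inhibitor TIMP3. Its normalized counts (counts scaled to a common library size) were 5526, 5565 and 5657 in Con and 1954, 1745 and 1771 in Dgal. The control libraries lay within 1.02-fold of each other, and all 3 Dgal libraries were far below them. This gave a log2 fold change of -1.61 (standard error 0.05). Of the 13407 genes tested, 81 had a lower log2 fold change. With each library left out in turn it lay between -1.67 and -1.58. No other annotated gene overlaps its exons, and 0% of its 31-base words occur in transcripts of other genes.

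Efemp2 (fibulin-4, chromosome 19, 5473973 to 5481853) carries lysyl oxidase to tropoelastin in fibre assembly. Its normalized counts were 2159, 2953 and 2996 in Con and 2779, 2374 and 2961 in Dgal. Con replicate 1 was the lowest of the 6 libraries and the groups overlapped. Its log2 fold change was 7.6e-04, with 2 standard errors reaching from -0.26 to 0.26. A difference inside that span remains possible. Without Con replicate 1 it was -0.14. Efemp2 shares 173 bases of exon with Mus81 on the other strand, and 4.78% of its words occur in transcripts of other genes. Mus81 had 254 to 303 counts per library, beside 2174 to 3619 for Efemp2.

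Fbln5 (fibulin-5, chromosome 12, 101746565 to 101819055, minus strand), which links tropoelastin to cells through integrins and to microfibrils, had 7639, 7877 and 7640 normalized counts in Con and 7750, 7323 and 6957 in Dgal. Dgal replicate 1 lay inside the control range and the other Dgal libraries below it. Its log2 fold change was -0.07 (standard error 0.04), with 2 standard errors from -0.16 to 0.01.

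Fbln7 (fibulin-7, chromosome 2, 128862981 to 128897034), a cell adhesion protein described in teeth and placenta, was the only member that was higher in Dgal. Raw counts were 71, 67 and 59 in Con and 106, 110 and 89 in the shallower Dgal group. After normalization these were 58.7 ± 3.68 (SD, n = 3) and 115.4 ± 7.12 (SD, n = 3), with no overlap. A log2 fold change of 0.98 (standard error 0.13) lay just short of the threshold of 1, so Fbln7 was not called at the study's thresholds. Without Con replicate 1 it was 1.02 and without Dgal replicate 3 it was 1.03, past the threshold, whereas the other libraries left out gave values from 0.93 to 0.99.

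The long fibulins were both lower. Fbln2 (ENSMUSG00000064080, chromosome 6, 91212455 to 91272540), which binds fibronectin and basement membrane proteins, was the most abundant of the 10 genes. It had 30293, 30897 and 31149 normalized counts in Con and 22897, 20687 and 21359 in Dgal. The 2 groups were clearly apart, and the spread was 1.43% of the mean in Con and 5.23% in Dgal. Fbln2 was 1.42-fold lower (log2 fold change -0.51, standard error 0.04), short of the study's fold threshold.

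Fbln1 (ENSMUSG00000006369, chromosome 15, 85205949 to 85286535), a protein of basement membranes and elastic fibres, was weakly expressed. Raw counts were 215, 151 and 109 in Con and 64, 38 and 53 in Dgal. After normalization the values were 187.4, 123.2 and 110.1 in Con and 71.8, 41.5 and 63.9 in Dgal. Con replicate 1 stood highest, the control libraries spanned 1.70-fold, and the groups did not overlap. Fbln1 was 2.38-fold lower (log2 fold change -1.25, standard error 0.26). Without Con replicate 1 the log2 fold change was -0.99, still past the adjusted p-value but short of the fold threshold, so the call of Fbln1 rests on that library.
The summed macrophage markers, like Fbln1, were highest in Con replicate 1. Csf1r had 141, 38 and 16 counts in Con and 13, 25 and 17 in Dgal, Cd68 had 167, 91 and 51 in Con and 48, 57 and 52 in Dgal, and Ptprc had 13, 1 and 0 in Con and 2, 0 and 3 in Dgal. The 5 markers of the list together made up 4.09 to 17.3 CPM in Con and 4.41 to 5.40 CPM in Dgal. Itgam had 9, 9 and 1 counts in Con and 2, 0 and 1 in Dgal, so it did not single out Con replicate 1. Adgre1 had no more than 3 counts in any library, and of the 2 markers that could be tested, Csf1r and Cd68, 0 passed the adjusted p-value. In the replicates of Con other than replicate 1, the list held 6.81 and 4.09 CPM, beside Fbln1 levels of 7.34 and 6.56 CPM. Fbln1 levels in Dgal were 2.47 to 4.28 CPM. Whether the macrophage markers and Fbln1 are linked was not tested.

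The fibrillins differed from each other in the size of their change. Fbn1 (ENSMUSG00000027204, chromosome 2, 125300594 to 125507993), which forms the bulk of adult microfibrils, had 3907, 4153 and 3873 normalized counts in Con and 3587, 3492 and 3521 in Dgal. All Dgal libraries were lower, but by a small margin. Fbn1 was 1.13-fold lower (log2 fold change -0.17, standard error 0.04). Gm9913, on the other strand, overlaps 2442 bases of its exons, 19.9% of the words of Fbn1 occur in transcripts of other genes, and the sources do not say whether counting used the strand. Gm9913 itself had 6 to 20 counts per library.

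Fbn2, the fibrillin prominent in development and tissue repair, had 562, 627 and 633 normalized counts in Con and 329, 312 and 337 in Dgal. The lowest control library lay well above the highest Dgal library. This made Fbn2 1.86-fold lower (log2 fold change -0.90, standard error 0.07), and the log2 fold change lay between -0.95 and -0.87 with each library left out. It stayed short of the fold threshold of the study in all of these.

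Mfap5, also named MAGP-2, is a small glycoprotein that binds fibrillin. Its gene lies on chromosome 6, 122505845 to 122529290, and had raw counts of 161, 171 and 125 in Con and 84, 80 and 75 in Dgal. The normalized counts were 135.4 ± 7.91 (SD, n = 3) in Con and 90.7 ± 3.46 (SD, n = 3) in Dgal, without overlap. Mfap5 was thus 1.49-fold lower (log2 fold change -0.58, standard error 0.11).

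Elastin was barely expressed. Eln (ENSMUSG00000029675, chromosome 5, 134702593 to 134747323) had raw counts of 17, 21 and 16 in Con and 16, 9 and 15 in Dgal. After normalization this gave 14.8, 17.1 and 16.2 in Con and 18.0, 9.83 and 18.1 in Dgal, so Dgal replicate 2 was the lowest and the others spread around the control values. Its log2 fold change was -0.08 (standard error 0.31), and 2 standard errors reached from -0.70 to 0.55. Without Dgal replicate 2 it was 0.17. At this depth, a change of elastin inside that span remains possible. Eln shares 267 bases of exon with Gm30003 on the other strand, and 3.93% of its words occur in transcripts of other genes.

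**Figure D2:**
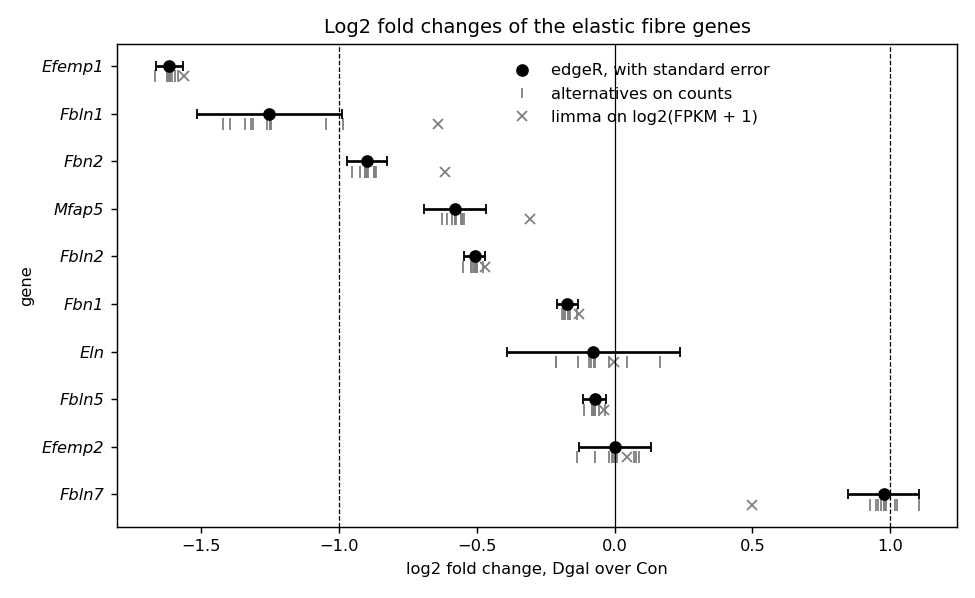
Log2 fold change of each gene (horizontal axis, Dgal over Con) with its standard error, and below it in grey the values under the alternatives, ticks for those on counts and crosses for limma on log2(FPKM + 1). Dashed lines mark a log2 fold change of 1 in size. Efemp1 lies beyond the line in each alternative, Fbln1 crosses it without Con replicate 1 and on log2(FPKM + 1), and Fbln7 lies next to it on counts (0.93 to 1.10) and at 0.50 on log2(FPKM + 1).

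To compare genes with each other, counts were divided by the length of the annotated exons and by the scaled library size, which gives CPM per kilobase. In Con the order of these levels was Fbln2 (287.9 ± 4.12), Efemp1 (163.3 ± 1.97), Fbln5 (66.5 ± 1.19), Efemp2 (42.5 ± 7.41), Fbn1 (19.5 ± 0.750), Fbn2 (2.74 ± 0.178), Mfap5 (2.25 ± 0.131), Fbln1 (1.91 ± 0.564), Fbln7 (1.08 ± 0.0679) and Eln (0.118 ± 0.00857), each with SD and n = 3. Neighbours in this order did not overlap between their 3 libraries, except Mfap5 and Fbln1. The fibulins Fbln2, Efemp1, Fbln5 and Efemp2 thus stood above both fibrillins in these cells, and elastin stood lowest.
In Dgal the order changed. Efemp1 (53.3 ± 3.33, SD, n = 3) stood below Fbln5 (63.3 ± 3.42, SD, n = 3), and Fbln7 (2.13 ± 0.131, SD, n = 3) above Mfap5 (1.51 ± 0.0575, SD, n = 3), Fbn2 (1.47 ± 0.0575, SD, n = 3) and Fbln1 (0.806 ± 0.214, SD, n = 3). In this group only Mfap5 and Fbn2 overlapped. The deposited FPKM values rest on other gene lengths, which follow from their ratio to the counts (9760 bases for Fbln2, in place of 6370), and place Fbln1 above Mfap5 in Con and Fbn2 above Fbln7 in Dgal. The exchange of Efemp1 and Fbln5 was the same with them.

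**Figure D3:**
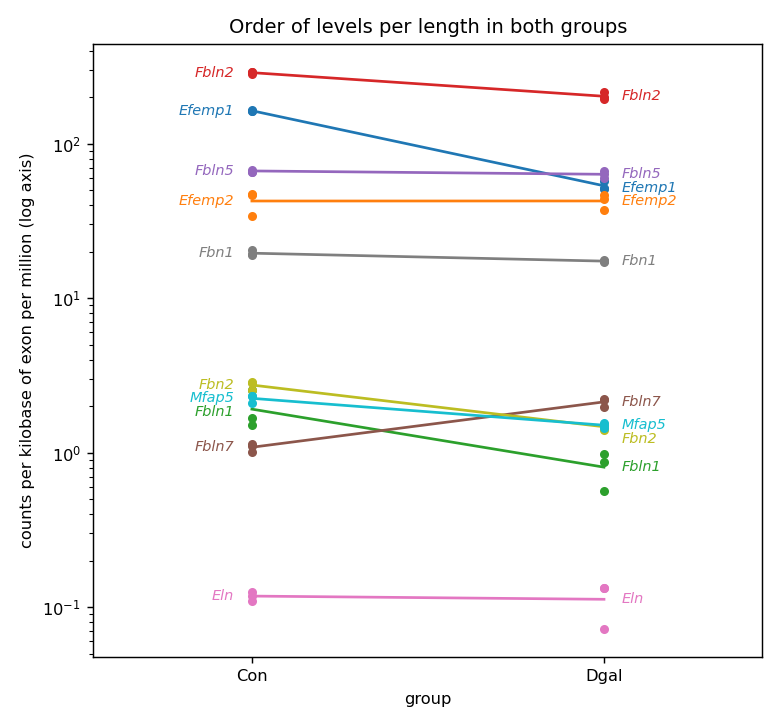
CPM per kilobase of exon (log axis) of the 10 genes in Con and Dgal, with a point per library and lines joining the group means. Efemp1 crosses below Fbln5, Fbln7 crosses above Mfap5, Fbn2 and Fbln1, and Eln stays lowest at 0.118 and 0.112.

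Ratios within a library show how the makeup shifted. The level of Efemp1 per kilobase was 2.45 ± 0.0578 times that of Fbln5 in Con and 0.843 ± 0.0298 times in Dgal (SD, n = 3). Against Efemp2 it was 3.92 ± 0.722 times in Con and 1.26 ± 0.133 times in Dgal. The ratio of Fbln2 to Efemp1 was 1.76 ± 0.0114 in Con and 3.80 ± 0.0546 in Dgal. Fbn1 stood 7.15 ± 0.457 times above Fbn2 in Con and 11.8 ± 0.411 times in Dgal (SD, n = 3), with all 3 Dgal libraries above all 3 Con libraries. These ratios come from the same libraries as the fold changes and carry no separate test.

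The 10 genes together held 3008, 3123 and 3114 CPM in Con and 2359, 2156 and 2216 CPM in Dgal. All Dgal libraries were lower, with means of 3082 ± 63.6 and 2244 ± 104.4 (SD, n = 3). Fbln2 alone made up 59.5% of the sum in Con and 57.5% in Dgal, and accounted for 64.9% of the difference between the means. Efemp1 made up 10.8% of the sum in Con, 4.84% in Dgal and 26.7% of the difference. Fbln1, one of the 2 called genes, accounted for 0.577% of it. The share of Fbln5 grew from 14.9% to 19.5% of the sum while its own log2 fold change was -0.07.

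**Figure D4:**
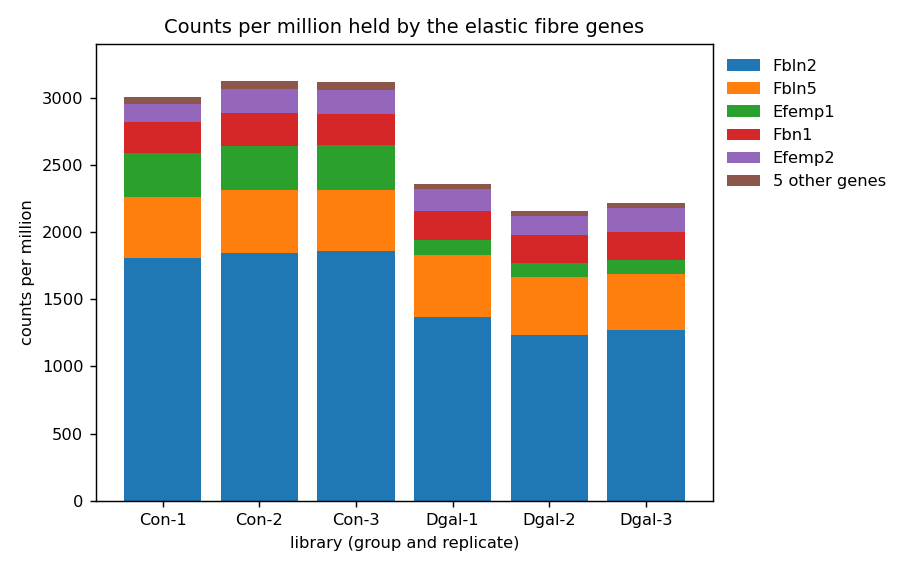
CPM (vertical axis, from 0) held by Fbln2, Fbln5, Efemp1, Fbn1, Efemp2 and the other 5 genes together in each of the 6 libraries. The bars reach 3008 to 3123 in Con and 2156 to 2359 in Dgal, and the green Efemp1 segment shrinks most in proportion.

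Genes were also compared with Efemp1 by the correlation of log2 normalized counts over the 6 libraries. The closest were S1pr3 (Pearson's r = 0.9997), a receptor for sphingosine-1-phosphate, Ncapd2 (0.9997), a condensin subunit, and Nid1 (0.9996), a basement membrane protein. For all 4 genes the 6 libraries fell into the same 2 groups, far apart, and these values are a description with no p-value. Normalized counts of S1pr3 were 4605 ± 38.03 in Con and 1927 ± 110.2 in Dgal (SD, n = 3), and its log2 fold change was -1.26. For Ncapd2 the log2 fold change was -0.67 and for Nid1 it was -0.93.

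Other genes of elastic fibre assembly and turnover were taken from a list of 62 genes, of which 53 could be tested. Of these, 26 were lower and 5 higher at an adjusted p-value under 0.05 in edgeR's quasi-likelihood test (58.5%, beside 34.8% of all genes tested), and 4 were called lower and 1 higher at the study's thresholds (9.43%, beside 4.21%). Their median log2 fold change was -0.20. The counts by role below stand beside the same 34.8% of all genes tested, 17.8% lower and 16.9% higher, and the list was drawn up with earlier results of these data known, so they are a description.
Of the 6 crosslinking genes tested, 3 fell and 1 rose. Lox, the lysyl oxidase that crosslinks elastin and collagen, fell from 46028 ± 684 to 24723 ± 1912 (SD, n = 3) in normalized counts (log2 fold change -0.90, edgeR adjusted p = 1.5e-05). Loxl3, which shares 535 bases of exon with Htra2 on the other strand, fell by 0.74 on the log2 scale, while Loxl4 rose by 0.76. Loxl1, the family member tied to elastin renewal, fell by 0.34. Loxl2 (-0.07) and Fkbp10 (0.06) did not pass the test. Loxl2 had only 28 to 55 counts per library, and 46.4% of its words occur in transcripts of other genes.

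Of the 9 microfibril proteins tested, 3 fell and 1 rose (44.4%, near the 34.8% of all genes tested). Emilin2, a glycoprotein at the interface of elastin and microfibrils, fell by 0.39 on the log2 scale, and Ltbp3, which holds latent TGF-β, fell by 0.20. Ltbp2, which binds fibrillin but not latent TGF-β, rose by 0.20, and 9.25% of its words occur in transcripts of other genes. Mfap2, the relative of Mfap5, had 279.2 ± 21.9 and 274.8 ± 28.5 normalized counts (SD, n = 3) and did not pass the test. Of the 6 ADAMTS and ADAMTS-like genes tested, several of which act on fibrillin, Adamtsl4 rose by 0.31 (edgeR, adjusted p = 0.0200), which no longer passed the adjusted p-value without Con replicate 3, Dgal replicate 1 or Dgal replicate 2. The log2 fold changes of Adamts10 (-0.23) and Adamtsl3 (0.84) did not pass.
Of the 10 receptor genes tested, integrins and the elastin receptor complex, 2 fell and 1 rose (30%, no more than among all genes tested). Itgb8, an integrin subunit that activates TGF-β, had 30, 23 and 42 counts in Con and 3, 5 and 3 in Dgal, a log2 fold change of -2.75 (standard error 0.47, edgeR adjusted p = 0.00283). At these low counts it was -0.14 on log2(FPKM + 1), and Itgb8 could not be fitted with at least 10 counts in every library. Itga8 rose, with 52, 47 and 54 counts in Con and 97, 106 and 88 in Dgal, a log2 fold change of 1.27 (standard error 0.16, edgeR adjusted p = 6.8e-04), or 0.40 on log2(FPKM + 1). Itgb3 fell by 0.52 on the log2 scale. Glb1, Ctsa and Neu1, whose products include the elastin receptor complex, had log2 fold changes of -0.03, 0.03 and 0.01 and did not pass the test. Counts are per gene, so different transcripts of Glb1 were not told apart.

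Among the 8 proteases tested that can cut elastic fibre proteins, 7 fell and 0 rose (87.5% lower, beside 17.8% of all genes tested). Mmp2 fell by 0.51 on the log2 scale, Mmp14 by 0.47 and Ctsl by 0.57, while 28.2% of the words of Ctsl occur in transcripts of other genes. Mmp9 was called, with 51, 59 and 40 counts in Con and 22, 12 and 23 in Dgal (log2 fold change -1.03, edgeR adjusted p = 0.0220; -0.32 on log2(FPKM + 1)), but no longer passed the adjusted p-value without Con replicate 1 or Con replicate 2 or with the replicate number as a block. Without Dgal replicate 2 its log2 fold change was -0.76, short of the fold threshold. Of the 3 inhibitors tested, Timp1 fell by 0.85 and Timp2 by 0.26, and Timp3, the partner of fibulin-3, had a log2 fold change of 0.02 and did not pass, while 21.9% of its words occur in transcripts of other genes.
Of the 11 binding partners in the matrix, 9 fell and 1 rose (81.8% lower, beside 17.8% of all genes tested). Fn1, on which fibrillin and fibulins assemble, had a log2 fold change of -1.27 (standard error 0.04, edgeR adjusted p = 1.8e-06), and shares 292 bases of exon with Apol7d on the other strand. Dcn, a small proteoglycan that binds collagen and microfibrils and is also in the fibroblast marker list, had 293, 366 and 316 counts in Con and 114, 76 and 95 in Dgal, a log2 fold change of -1.42 (standard error 0.16, edgeR adjusted p = 4.3e-04). Nid1, which binds fibulins in basement membranes, fell by 0.93 and Tgfb2 rose by 0.60 on the log2 scale.

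**Figure D5:**
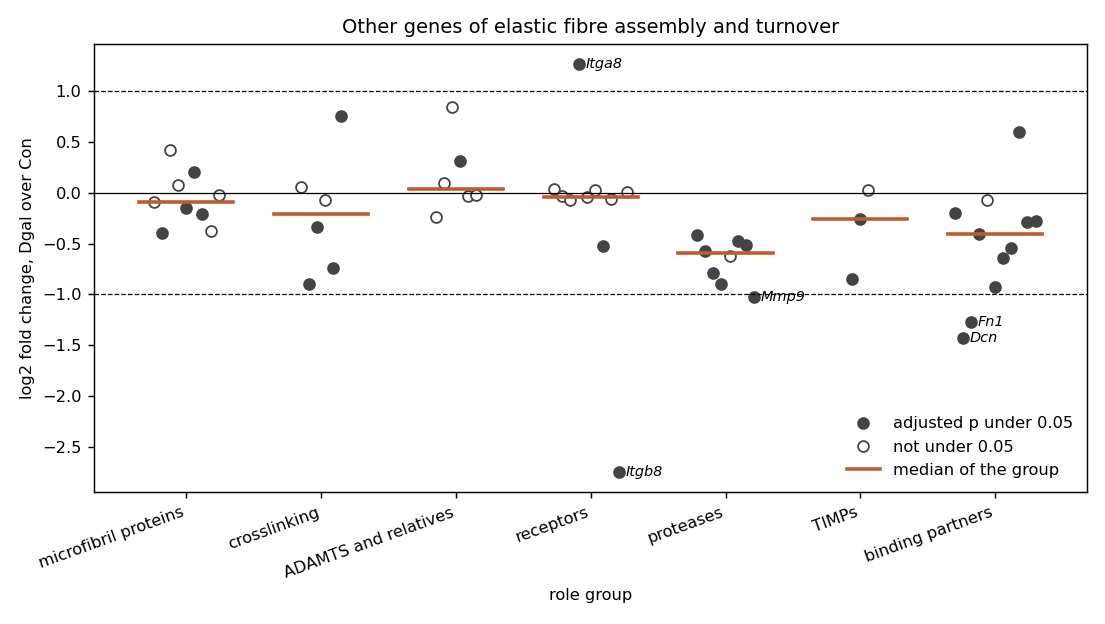
Log2 fold changes (vertical axis, Dgal over Con) of the 53 tested genes by role, filled where the adjusted p-value is under 0.05, with the median of each role as a line and the 5 called genes named. The proteases have the lowest median (-0.60) and the ADAMTS genes the highest (0.04).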

How the data were processed

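RNA-seq was analysed from 3 Con (PBS) and 3 Dgal (D-gal) libraries of NOR-10 cells. Sample titles gave group and replicate number, and the paper's methods gave dose and duration. The deposited table holds a count of reads per gene and library, which the authors gave without normalization, and FPKM values, which the authors computed from these counts, a gene length and the library total. Per the paper's methods, reads were checked with FastQC (version 0.11.9) and trimmed with Trimmomatic (version 0.39). The submitters' processing notes name HISAT2 (version 2.0.4). The counting tool, its strand setting and the genome build are not given in the sources used here. The paper names a small RNA kit and the labels an RNA-seq kit, and the labels were followed. Positions are as deposited and were read as GRCm38, since GENCODE release M21 of that build holds 34344 of the 34745 identifiers and the same start and end for 8 of the 10 members, all but Efemp2 and Fbn2.

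The fit used edgeR (version 4.0.16, R 4.3.3) with TMM scaling, the filterByExpr filter and a two-sided quasi-likelihood test, with Benjamini-Hochberg adjustment over 13407 genes. TMM factors lay between 0.986 and 1.01, and the biological coefficient of variation was 9.47%. The standard error was taken as the size of the log2 fold change over the root of the F statistic. Normalized counts are counts scaled to the mean TMM library size. Levels per kilobase use the union of annotated exons. Replicates differed beyond counting noise (chi-square of at least 6.00 per degree of freedom), and none was treated as a duplicate. Simulated counts with 200 changed genes were used to test the fit, and edgeR recovered 189 of them among 13283 genes. Recovery at the log2 fold changes of the genes described here was not tested separately.

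The members and all lists were chosen with earlier results of these data known. Named were all 10 members, of the other elastic fibre genes those called and the 3 with the smallest p in each role, and the 3 genes most correlated with Efemp1; further genes named in a role were picked after their values were seen. Alternatives were DESeq2 (version 1.42.0), RLE size factors, no filter, a minimum of 10 counts per library, a block for the replicate number, leaving out each library, limma (version 3.58.1) on log2(FPKM + 1), counts thinned to the smallest library (seed 7), the adjusted p-value alone and glmTreat.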

Additional observations from a re-analysis of the deposited data

How the results depend on the processing

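At the adjusted p-value alone, 7 members passed (6 lower and 1 higher) under every alternative other than glmTreat, which tests against the fold threshold. With at least 10 counts in every library Eln could not be fitted. Of the 10 members, 2 were past both thresholds, 1 with limma on log2(FPKM + 1), 1 with glmTreat and 7 at the adjusted p-value alone. With a library left out this count was 2 to 3, as Fbln1 fell short without Con replicate 1 and Fbln7 passed without Con replicate 1 or Dgal replicate 3. Thinned counts also gave 3, with Fbln7 at 1.10. Over all genes, the 564 calls became 120 with limma, 95 with glmTreat and 4661 at the adjusted p-value alone, and among the other elastic fibre genes the 5 calls became 2, 1 and 31. On log2(FPKM + 1), a scale that understates low genes, the log2 fold change was -0.64 for Fbln1, 0.50 for Fbln7, -0.14 for Itgb8, 0.40 for Itga8 and -0.32 for Mmp9.

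The sign of 3 log2 fold changes near 0 turned. Efemp2 was -0.0084 without a filter and -0.0069 in thinned counts, and lay between -0.138 and 0.0873 with a library left out. Eln was 0.0433 in thinned counts and lay between -0.21 and 0.17. Timp3 lay between -0.0069 and 0.0475.

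Mean control levels moved with the deposited FPKM to 147.1 for Efemp1, 32.3 for Efemp2, 185.5 for Fbln2, 77.9 for Fbln5, 0.685 for Fbln7, 0.0975 for Eln, 15.9 for Fbn1, 3.41 for Fbn2 and 1.59 for Mfap5. The gene lengths behind them differ by construction.

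Same-numbered libraries did not deviate together (Pearson's r from -0.0109 to 0.0150 over genes), so no broad shift shared by replicate number was seen. This cannot show whether same-numbered samples were prepared together. The replicate block gave 530 calls over all genes, 2 members past both thresholds and 4 other elastic fibre genes, Mmp9 being lost.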

Other observations

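Itgav, the integrin subunit that binds fibrillin and fibulin-5, differed within both groups rather than between them. Its normalized counts were 2169, 2186 and 4318 in Con and 2154, 4087 and 2191 in Dgal, so Con replicate 3 and Dgal replicate 2 stood about 2-fold above the other libraries. The spans were 1.99-fold in Con and 1.90-fold in Dgal, and the log2 fold change was -0.04 (standard error 0.33).

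The symbol Ltbp4, a binder of latent TGF-β and fibulin-5, belongs to 2 identifiers of the table. The first had 333, 257 and 271 counts in Con and 157, 178 and 187 in Dgal. The second had 99 counts in Con replicate 2 and 0 in every other library. The values of Ltbp4 in the comparison are those of the first identifier, with a log2 fold change of -0.38. It did not pass the test (edgeR adjusted p = 0.0853). Con replicate 2, which holds the 99 counts, was its lowest control library. The fit was not repeated with both identifiers added together.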
